A study of Mus musculus with 18 samples.

Results

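TEC is the GENCODE class for candidate genes that still await experimental proof, stretches of the genome where clusters of unspliced cDNA tags with features of polyadenylation hint at a gene. Of the 3146 autosomal TEC genes counted in these libraries, the 200 with the highest count summed over all 18 libraries were taken, out of 54446 genes counted in all. Biotypes and positions are those of GENCODE M21 on GRCm38. Gm37596, which was to be left out, carries the biotype protein_coding in that release, so its exclusion removed no gene. The 200 genes were thus chosen by their summed counts, which are given as a description. They ran from 164 to 13701 reads, with a median of 461.5. The last inside were 1700051K13Rik with 165 reads and Gm43123 with 164, and the first outside were Gm37120 with 160 and Gm37695 with 158.

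The libraries hold nascent RNA of mouse embryonic stem (mES) cells, wild type (WT) or Tet2-KO, after 10, 20 or 40 min of labelling with 1 mM 5-ethynyl uridine (EU), with 3 replicates in each of the 6 groups. EU is a uridine analogue that RNA polymerases build into RNA as it is made, so that the labelled RNA can be tagged and pulled down. TET2 is a dioxygenase that oxidizes 5-methylcytosine in DNA and RNA. Each genotype is 1 line (WT and Tet2-/-), kept with serum, LIF, CHIR99021 and PD0325901 and passed on gelatin to clear feeder cells. Line and genotype therefore cannot be told apart, and the spread between replicates may be partly technical.

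The libraries hold 17931614 to 23069143 reads on genes and 44162 to 512186 reads on the 92 ERCC transcripts, synthetic RNAs added as a spike-in. By the paper's methods the spike-in went into the RNA after pull-down, in proportion to each sample's total RNA. A level per ERCC read is thus not a level per cell and does not correct for recovery in labelling and pull-down. The targeted gene, Tet2, gave 25.6 to 190 reads per 1000 ERCC reads over the WT libraries and 48.4 to 273 over those labelled Tet2-KO, and its share of gene reads differed by -0.20 on the log2 scale. The reads appear to be counted over the whole gene, introns included, so this total does not check the deletion. Of 8 stem cell markers, 7 were measured at 46.2 to 989 mean reads per 1000000 gene reads (RPM) in either genotype. Sox2 had 0 reads, and lies wholly inside Sox2ot on the same strand. Of these 7, 6 had a lower share in Tet2-KO libraries, where 32% of all genes tested were lower. The summed share was 2872 to 3053 RPM in WT and 2093 to 2210 in Tet2-KO. Most of that gap lay in Zfp42, with means of 539 and 113 RPM, and Tfcp2l1, with 989 and 712. Nanog (311 and 286) and Esrrb (830 and 797) differed less, and Pou5f1 was higher in Tet2-KO (89.2 and 99.4). All 4 tested markers of 2-cell-like cells were lower in Tet2-KO (summed share 14 to 26.2 RPM in WT and 1.93 to 4.22 in Tet2-KO), and 2 of 5 tested fibroblast markers were higher (5.08 to 30.0 and 7.71 to 21). Among 4 tested primitive endoderm markers, 1 was lower (6.75 to 13.8 and 5.49 to 10.7). The part of these cell states in the TEC results was not tested.

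Nascent RNA holds much that mature RNA does not. Introns are still present, polymerases run on past the polyadenylation site of a gene, and many promoters fire in both directions, so that unspliced RNA arises inside, behind and opposite known genes. Unverified single-exon genes often lie in just these places.

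Whether a TEC gene had reads went with its place. Of the 3146 autosomal TEC genes, 1457 lie inside introns of a protein-coding gene on the same strand, and every one of them had 0 reads in all 18 libraries. So 0 of the 200 genes lie inside such an intron, and the result was 0 as well when lying within an intron of at least 1 transcript was enough. The same held for other classes of gene. Among all genes counted, 6509 have a span wholly covered by other genes on the same strand, and 6485 of these had 0 reads. Of the 6097 genes wholly covered on the opposite strand only, 4494 had reads. The counts thus behave as if strand was used, whole gene spans were counted and reads on 2 genes of 1 strand were set aside. Such set-aside reads made up 2.32% to 2.50% of each library's reads. Nothing can be said from these files about RNA of the 1457 genes themselves.

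**Figure D1:**
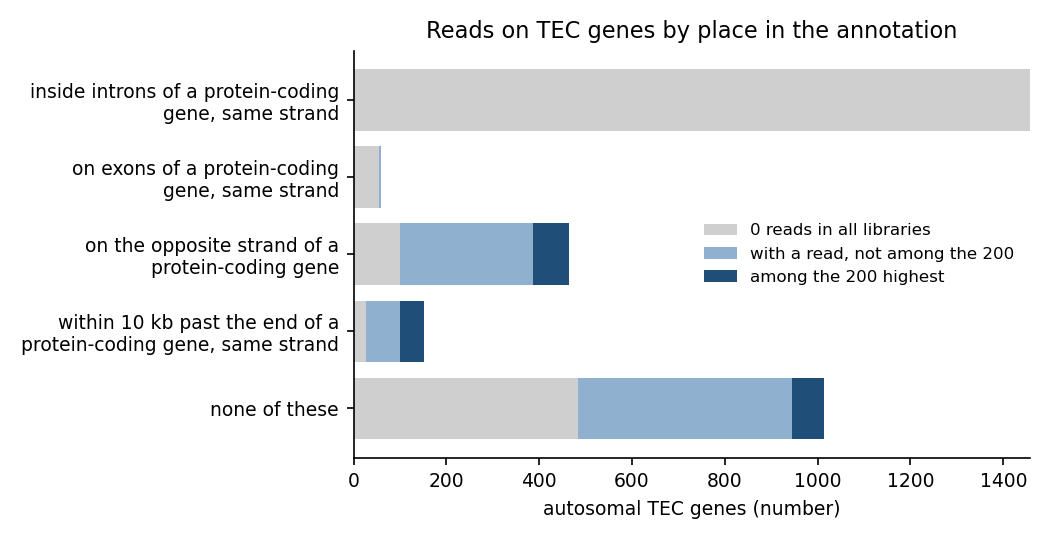
Autosomal TEC genes (number, horizontal axis) by their place relative to protein-coding genes, split into genes with 0 reads in all libraries, genes with a read that are not among the 200, and the 200 highest. All 1457 genes inside same-strand introns are at 0, while 365 of 464 on the opposite strand of a protein-coding gene have reads.

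The 200 genes fall into a few places instead. On the opposite strand of a protein-coding gene lie 77 of them, of 464 TEC genes so placed. Another 52, of 151, start within 10 kb past the end of a protein-coding gene on its strand, with a median gap of 2217 bases and 25 of them within 2000 bases. A further 69, of 1014, lie in none of these places, and 2, of 60, overlap exons of a protein-coding gene. At least 1 read was found on 78.7% of the TEC genes on the opposite strand, on 82.1% of those behind a gene, on 52.4% of those away from protein-coding genes and on 8.33% of those on exons. Of the 200, 191 share no base with another gene on their own strand. By chromosome, 28 are on 5, 26 on 6, 20 on 3 and 19 on 7, and the table holds 501, 303, 323 and 314 TEC genes there. Chromosomes 11, 17 and 19 hold 3, 1 and 1 of them.

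All but 2 of the 200 genes have 1 exon, as 98.2% of all autosomal TEC genes have. The median transcript is 2226 bases long, against 1770 for the 825 other TEC genes with a read and 2015 for the 2121 at 0 reads. Median GC content was 45.3%, 44.6% and 41.2% in the same order. The start of 21.5% of the 200 lies within 1000 bases of a protein-coding start on the opposite strand, against 12.6% of the others with reads and 1.23% of those at 0. Only 13 symbols of the 200 are found in the RefSeq gene table, 8 as lncRNA and 3 as protein_coding. The polyadenylation signal, AATAAA or its common variant ATTAAA read on the gene's own strand, is in the last 50 bases of 101 of the 200 transcript models (50.5%). It is in 38.4% of the other TEC genes with reads and 23.2% of those at 0. Among transcripts in GENCODE M21 it is in 29.0% of TEC, 50.2% of protein-coding and 33.8% of all. These lists were formed by read counts, so the shares are a description.

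The last 50 bases of the model are shown for 6 of the genes. The first 4 hold the signal, in capitals, and the last 2, the genes with the most reads, do not. Each is given 5' to 3' on the gene's strand, from the GENCODE M21 transcripts on GRCm38.
Gm43668 (chr3:34075951-34076000, + strand): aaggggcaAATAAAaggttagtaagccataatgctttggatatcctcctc
Gm37238 (chr13:48542644-48542693, - strand): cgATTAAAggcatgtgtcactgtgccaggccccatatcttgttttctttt
Gm45424 (chr8:85603082-85603131, + strand): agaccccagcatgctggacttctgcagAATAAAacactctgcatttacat
A530030E21Rik (chr16:19244785-19244834, + strand): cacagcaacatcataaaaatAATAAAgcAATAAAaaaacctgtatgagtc
Gm37899 (chr12:109677536-109677585, + strand): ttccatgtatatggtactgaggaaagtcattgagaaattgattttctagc
E330034L11Rik (chr3:95640996-95641045, + strand): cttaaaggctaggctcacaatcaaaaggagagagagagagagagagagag
In Gm45424 and A530030E21Rik the signal sits near the end of the model, while Gm43668 and Gm37238 hold it at the far side of the window. E330034L11Rik ends in a GA repeat.

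Reads on the 200 genes were few. They came to 212092 in all, 90.5% of all reads on autosomal TEC genes, and 34.5% of them fell on the 10 highest genes. In each library they made up 0.0478% to 0.0639% of gene reads. The median tested gene had 2841 reads against the 461.5 of the 200, and 103 of the 200 had at least 10 reads in every library. All 200 passed the filter on low counts, as did 41 other TEC genes.

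Summed over the 200 genes, the level per ERCC read was higher in Tet2-KO at each labelling time, while the share of gene reads differed little at 10 and 20 min. At 10 min the 3 WT libraries held 28.4, 31.2 and 26.1 reads per 1000 ERCC reads, and the Tet2-KO libraries 61.4, 56.3 and 62.7. At 20 min the values were 84.9, 94.7 and 85.7 in WT and 115, 129 and 128 in Tet2-KO. At 40 min they were 120, 127 and 114 in WT and 240, 200.2 and 225 in Tet2-KO. The genotypes did not overlap at any time. The ratio of Tet2-KO to WT means was 2.10 at 10 min, 1.40 at 20 min and 1.84 at 40 min. Protein-coding genes gave 2.06, 1.41 and 1.61. Antisense genes gave 2.02, 1.38 and 1.81, the other autosomal TEC genes 2.02, 1.33 and 1.73, and lincRNA genes 1.80, 1.18 and 1.42. The ratio at 40 min was thus not particular to the 200.

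Within all reads on genes, the 200 took 612 ± 2.17 RPM in WT at 10 min and 630 ± 8.61 in Tet2-KO (SD, n = 3), and each Tet2-KO library lay above each WT library. At 20 min the shares were 601 ± 11.7 and 602 ± 5.48 RPM, so the genotypes overlapped. At 40 min they were 487 ± 7.78 and 558 ± 10.4, and each Tet2-KO library was above each WT library. The ratio of the shares was thus 1.03, 1.00 and 1.14. At 40 min it was 1.28 for those away from protein-coding genes, 1.10 for those opposite them and 1.00 for those behind them. The median member differed by 0.02 on the log2 scale at 40 min, so the sum does not describe a typical member. Antisense genes gave 1.13 at 40 min, the other autosomal TEC genes 1.08 and lincRNA genes 0.89. Against labelling time, the level per 1000 ERCC reads had a slope of 2.85 ± 0.43 a minute in WT (± SE over 9 libraries). In Tet2-KO the slope was 5.32 ± 0.34, a ratio of 1.86 where protein-coding genes gave 1.56. No slope was taken for antisense or other TEC genes, whose ratios of means per ERCC read at 40 min were 1.81 and 1.73. The slope ratio is therefore not shown to be particular to the 200. The line is a rough summary, since the WT means of 28.6, 88.4 and 120 rose most from 10 to 20 min. Its intercept was 12.6 in WT and 11.2 in Tet2-KO, and -3219 and -10.7 for protein-coding genes. Taken singly, 195 of the 200 had a positive slope in both genotypes, and 161 of these a larger one in Tet2-KO, with a median log2 ratio of 0.74.

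**Figure D2:**
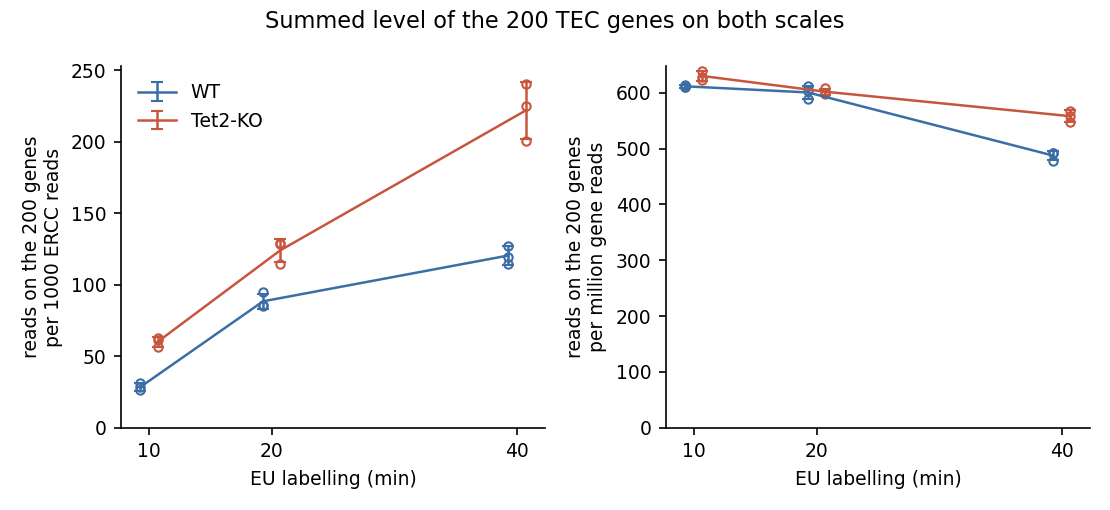
Reads on the 200 TEC genes per 1000 ERCC reads (left) and per 1000000 gene reads (RPM) (right) against EU labelling time in min. Open circles are libraries, lines join the means of 3 and bars are the SD; per ERCC read the genotypes are apart at every time, and as share the means differ most at 40 min, at 487 and 558 RPM.

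Gene by gene, 136 of the 200 were higher and 3 were lower per ERCC read in Tet2-KO on the average of the 3 times (edgeR's quasi-likelihood test, adjusted p under 0.05 over all 19910 genes tested). Of all genes tested, 80.5% were higher and 4.15% lower. The median log2 fold change was 0.69 for the 200 genes and 0.70 for all genes. By labelling time, 130 were higher at 10 min (79% of all genes), 49 at 20 min (53.7%) and 96 at 40 min (68.2%), while 1, 3 and 1 were lower (2.1%, 4.86% and 2.84%). At 40 genes the genotypes did not overlap at any time with Tet2-KO higher, and at 1 with Tet2-KO lower, where all genes gave 51.6% and 1.56%. The median member had 461.5 reads and the median tested gene 2841, so counts of calls and of non-overlap are not compared at like depth. The part of depth in them was not tested.

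The share of gene reads leaves out any shift common to all genes. On this scale 28 of the 200 were higher and 39 lower in Tet2-KO (24.6% and 32% of all genes). The median was -0.04 for both the 200 and all genes. At 10 min 22 were higher and 27 lower (17.9% and 27.1% of all genes), at 20 min 14 and 19 (17.6% and 20.7%), and at 40 min 20 and 11 (18.9% and 19.6%). With DESeq2 and its own size factors the split at 10 min was 23 higher and 16 lower. By place, 10 were higher and 15 lower of the 77 opposite protein-coding genes, 5 and 9 of the 52 behind genes, and 13 and 15 of the 69 away from them. For comparison, lincRNA genes gave 388 higher and 389 lower of 1612, antisense genes 203 and 271 of 1182, and the 41 other TEC genes 5 and 3.

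Both scales use the same counts and differ only in the library size. The median of all genes was 0.70 per ERCC read and -0.04 in share. A higher share therefore nearly always comes with a higher level per ERCC read, and this agreement is not a second test. All 28 genes with a higher share were also higher per ERCC read. Of the 39 with a lower share, 3 were lower per ERCC read too, 10 were higher per ERCC read and 26 were called on neither side. No call was made on either scale for 35 genes. In the share, the genotypes did not overlap at any of the 3 times at 12 genes higher and 10 lower in Tet2-KO (11.8% and 13.9% of all genes).

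**Figure D3:**
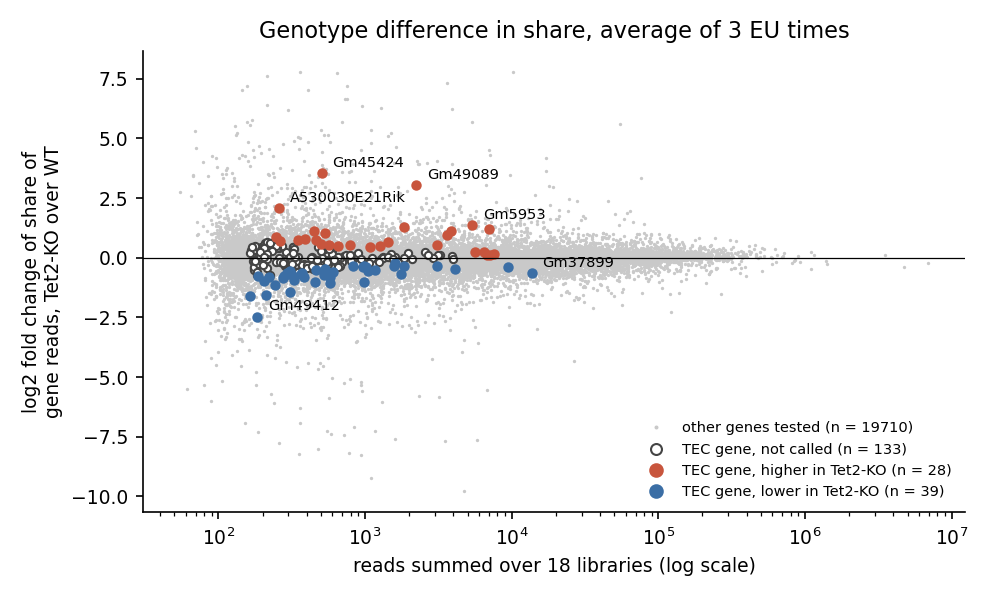
Log2 fold change of the share of gene reads, Tet2-KO over WT on the average of 3 EU times, against reads summed over 18 libraries (log scale) for the other genes tested (grey) and the 200 TEC genes. Filled circles are the 28 genes called higher and 39 called lower; Gm45424 and Gm49089 lie highest of the 200 and Gm49412 lowest.

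Gm45424 (chr8:85599832-85603131, + strand), whose 3' end is printed above, differed most. It had 13, 1 and 2 reads in the WT libraries at 10 min, 7, 5 and 3 at 20 min and 2, 6 and 3 at 40 min. The Tet2-KO libraries had 72, 52 and 60, then 48, 52 and 55, then 47, 47 and 33. The highest WT count was 13 and the lowest Tet2-KO count 33. The share was higher by 3.56 ± 0.26 on the log2 scale (± SE, edgeR adjusted p = 8.2e-14). Gm45424 reached the list and passed the filter on low counts only through its Tet2-KO libraries. The choice of genes thus favoured such a difference, and the p-value is given as a description. Gm45425, a lincRNA gene that starts 2331 bases further on the same strand, differed by 2.11, and Dnaja2, a heat shock protein 40 family gene 44488 bases away on the other strand, by 0.09.

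Gm49089 (chr15:33831448-33834353, + strand) lies more than 100 kb from any other tested gene that is not a TEC gene. Its share in WT was 1.35, 1.53 and 0.411 RPM at 10 min, 1.48, 2.27 and 0.792 at 20 min and 1.30, 1.62 and 1.89 at 40 min. In Tet2-KO it was 6.80, 11.7 and 11.0, then 11.5, 11.9 and 9.92, then 12.9, 13.6 and 13.9. The difference was 3.04 ± 0.15 (edgeR adjusted p = 2.2e-18). The nearest tested genes, Tspyl5 at 143564 bases and the lincRNA gene Gm41290 at 187642 bases, differed by 0.43 and 0.84 with edgeR adjusted p of 0.34 and 3.0e-08.

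Gm5953 and Gm46339, 9th and 5th in abundance, are neighbours on chromosome 12 (chr12:19288562-19291177 and chr12:19301653-19305191, both + strand), 10476 bases apart. Gm5953 had 7.0, 7.73 and 7.03 RPM in WT at 10 min and 18.5, 22.3 and 22.0 in Tet2-KO. At 40 min it had 9.28, 9.05 and 9.33 in WT and 22.5, 20.9 and 23.9 in Tet2-KO. Its share was higher by 1.37 ± 0.06 (edgeR adjusted p = 8.2e-20). Gm46339 rose from 9.91, 11.1 and 9.08 to 13.9, 13.4 and 12.8 RPM in WT between 10 and 40 min, and from 24.1, 26.9 and 21.8 to 32.7, 28.3 and 30.2 in Tet2-KO. It was higher by 1.2 ± 0.05 (edgeR adjusted p = 2.2e-19). Between them lies the lincRNA gene Gm10479 on the same strand, 1636 bases past Gm5953 and 389 before Gm46339, which was higher by 0.95. Whether Gm5953, Gm10479 and Gm46339 are 1 transcript was not tested, so they are not independent cases. Further on the same strand, 23867 bases past Gm46339, the unprocessed pseudogene Gm9255 went the other way, with a difference of -3.65 on 249 reads in all.

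A second pair of neighbours lies on chromosome 16. Gm42870 (chr16:19231333-19234802, + strand) and A530030E21Rik (chr16:19243525-19244834, + strand), 8723 bases apart, had shares higher by 1.30 ± 0.10 and 2.08 ± 0.28 (edgeR adjusted p = 7.0e-13 and 1.2e-07). A530030E21Rik had 0.359, 0.584 and 0.547 RPM in WT at 10 min and 0.978, 1.5 and 0.892 in Tet2-KO. At 40 min WT had 0.260, 0.343 and 0.340 and Tet2-KO 1.48, 1.24 and 1.78. The counts behind it are low, at 0 to 32 reads a library. A530030E21Rik, like Gm45424, reached the list and passed the filter only through its Tet2-KO libraries, so its p-value is a description. Among the 200 there are 9 such pairs within 10 kb on 1 strand.

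Gm43414 and Gm43980 are the remaining named genes of the 12 that were higher on both scales with no overlap in share, of which the 8 with the highest fold change are named. Gm43414 (chr3:37708021-37711208, + strand) had 5.55, 4.99 and 5.20 RPM in WT at 40 min and 15.2, 13.5 and 16.2 in Tet2-KO, and was higher by 1.12 ± 0.07 (edgeR adjusted p = 5.8e-15). It lies 63423 bases past Spry1, an inhibitor of receptor tyrosine kinase signalling, which differed by -0.29. Gm43980 (chr6:49254851-49256462, + strand) lies opposite Tra2a, a splicing regulator. It had 0.538, 1.08 and 0.411 RPM in WT at 10 min and 3.02, 2.11 and 1.57 in Tet2-KO. It was higher by 1.13 ± 0.21 (edgeR adjusted p = 3.0e-05) while Tra2a differed by 0.22. Per base its count was 3.63% of that of Tra2a.

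Gm49412, 1700051K13Rik and Gm49499 were lower on both scales with no overlap in the share at any time. Gm49412 (chr15:79873869-79877223, + strand) had 26, 14 and 22 reads in WT at 10 min, 12, 12 and 20 at 20 min and 16, 23 and 13 at 40 min. Tet2-KO libraries had 5, 1 and 3, then 4, 0 and 2, then 6, 5 and 0. Every WT library held at least 12 reads and no Tet2-KO library more than 6. Gm49412 and 1700051K13Rik passed the filter on low counts only through their WT libraries, so their p-values are a description. The share differed by -2.46 ± 0.38 and the level per ERCC read by -1.75 ± 0.39 (edgeR adjusted p = 1.4e-06 and 1.3e-05). Apobec3, a cytidine deaminase gene that starts 14436 bases further on the same strand, differed by 0.44 in share.

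1700051K13Rik (chr6:134245671-134246366, - strand) lies opposite Etv6, a transcriptional repressor of the ETS family. Its share was 0.852, 0.629 and 0.867 RPM in WT at 10 min and 0.178, 0.0555 and 0.315 in Tet2-KO, a difference of -1.58 ± 0.34 over all times (edgeR adjusted p = 0.00018). Gm17089, an antisense gene 1960 bases away on the same strand, differed by -1.67, and Etv6 by -0.12. Gm49499 (chr15:101316102-101318538, + strand) had 1.79, 1.62 and 1.87 in WT at 10 min and 1.47, 0.444 and 0.735 in Tet2-KO. It differed by -1.42 ± 0.28 (edgeR adjusted p = 6.1e-05), and 6030408B16Rik, 18676 bases before it on the same strand, by -1.12.

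**Figure D4:**
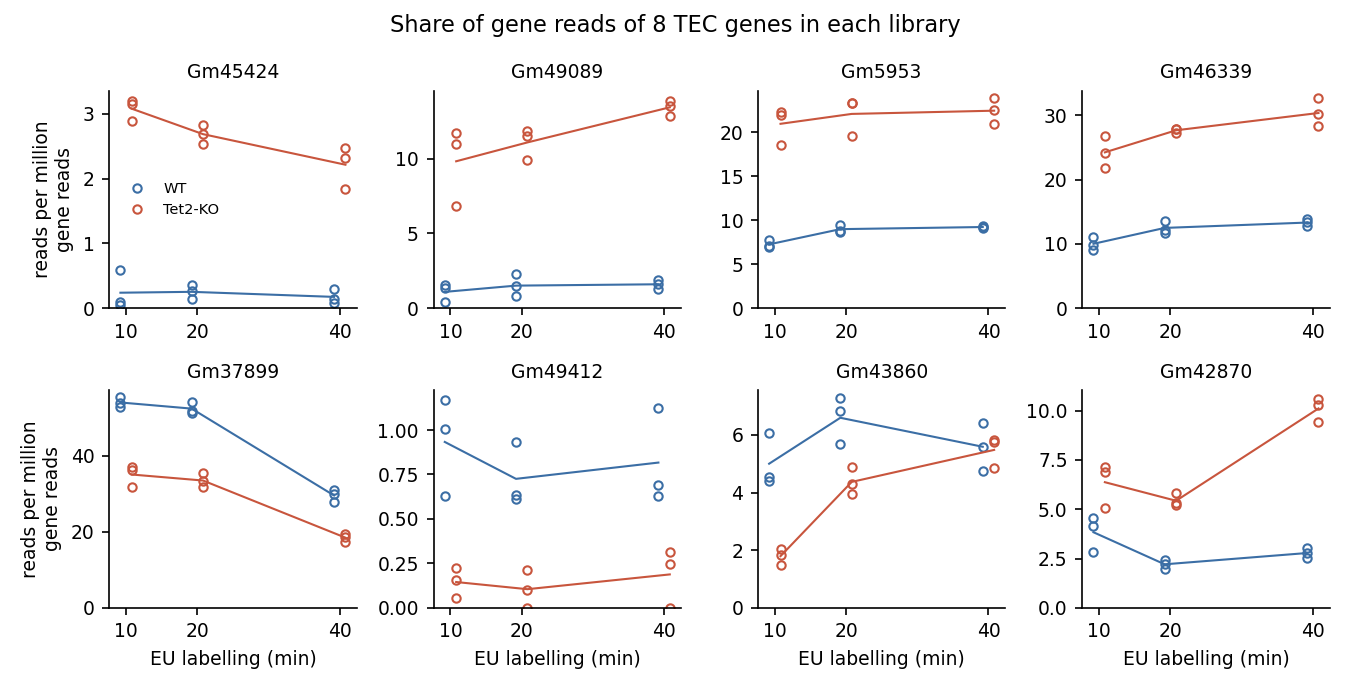
RPM against EU labelling time in min for 8 of the TEC genes, with a circle for each library, lines through the means of 3 and vertical axes that start at 0 and differ between panels. Gm45424, Gm49089, Gm5953 and Gm46339 are higher in Tet2-KO at every time, Gm37899 and Gm49412 are lower, and Gm43860 and Gm42870 change their genotype difference with time.

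The most abundant gene of the 200, Gm37899 (chr12:109668869-109677585, + strand), lies in the imprinted Dlk1-Meg3 domain, where long noncoding RNAs are made in 1 direction from the maternal chromosome. It starts 7153 bases past Rian, the host of many small nucleolar RNAs. Its share was 52.9, 55.3 and 53.7 RPM in WT at 10 min, 51.3, 54.0 and 51.8 at 20 min and 27.8, 29.9 and 30.9 at 40 min. In Tet2-KO it was 37.1, 31.7 and 36.4, then 31.7, 33.2 and 35.5, then 18.6, 17.2 and 19.5. The share was lower in Tet2-KO at every time, by -0.65 ± 0.04 on average (edgeR adjusted p = 7.2e-16). Per ERCC read the difference was 0.09 ± 0.06 and was not called (edgeR adjusted p = 0.20). The other long RNAs of the domain differed in share in the same direction, Meg3 by -0.47, Rian by -0.49 and Mirg by -0.62. Between 10 and 40 min the share of Gm37899 changed by -0.87 in WT and -0.93 in Tet2-KO. For Rian these values were -0.64 and -0.71.

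E330034L11Rik (chr3:95639304-95641045, + strand), the second in abundance, starts 7202 bases past the end of Ensa, which encodes a phosphatase inhibitor of mitosis. Its share was 24.6, 26.1 and 31.3 RPM in WT at 10 min and 20.7, 22.8 and 22.7 in Tet2-KO. It differed by -0.38 ± 0.05 (edgeR adjusted p = 8.4e-08), with no overlap at any time, and Ensa by -0.43. Per ERCC read it was higher in Tet2-KO, by 0.36 ± 0.07 (edgeR adjusted p = 2.6e-07). Per base E330034L11Rik had 335% of the count of Ensa.

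Gm37795 (chr4:150068539-150070997, + strand) is the third. It holds Mir34a, the microRNA gene known as a target of p53, within its span. Its share was 22.8, 19.9 and 23 RPM in WT at 10 min and 20.0, 22.3 and 23.8 in Tet2-KO, so the genotypes overlapped there. Over all times it differed by 0.14 ± 0.06 (edgeR adjusted p = 0.030), a call that was lost in 7 alternatives and kept in 16.

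Gm43668 (chr3:34070659-34076000, + strand) starts 337 bases past Fxr1, which encodes an RNA-binding protein of the fragile X family, and lies opposite Dnajc19. It had 23.5, 24.4 and 23 RPM in WT at 10 min and 25.9, 22.0 and 25.4 in Tet2-KO. The share differed by 0.13 ± 0.05 (edgeR adjusted p = 0.032), a call that was lost in 9 alternatives and kept in 14. The share of Fxr1 differed by 0.13. Its count per base was 44.5% of that of Fxr1 and 554% of that of Dnajc19.

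Gm37238 (chr13:48542644-48545033, - strand) lies 4372 bases from Mirlet7a-1, a let-7 microRNA gene, and shares its whole span with the lincRNA gene 6720427I07Rik in GENCODE M21. It still has reads, and it is the 1 TEC gene so placed that does. The files were counted on GENCODE M19, and why it was counted was not tested. Its share at 40 min was 14.9, 14.1 and 14.5 RPM in WT and 17.3, 17.8 and 17.1 in Tet2-KO, and over all times differed by 0.13 ± 0.05 (edgeR adjusted p = 0.026), a call that was lost in 4 alternatives and kept in 19.

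Gm45205 (chr7:127993269-127996598, + strand) lies opposite Pycard, an adaptor of inflammasomes. Its share was 13.2, 18.1 and 13.0 RPM in WT at 10 min and 18.9, 20.8 and 20.2 in Tet2-KO, and the difference over all times was 0.26 ± 0.06 (edgeR adjusted p = 0.00028). Pycard differed by -0.55. The ratio of Gm45205 to Pycard was higher in Tet2-KO by 0.82 ± 0.12 (limma adjusted p = 6.9e-05).

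4933424N20Rik (chr5:116380173-116381635, - strand) lies away from protein-coding genes, 26856 bases past Hspb8, a small heat shock protein gene that differed by -0.33. Its share was 15.3, 14.9 and 15.9 RPM in WT at 10 min and 21.4, 19.5 and 17.8 in Tet2-KO, and was higher by 0.23 ± 0.06 over all times (edgeR adjusted p = 0.00074).

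Gm37376 (chr19:5801941-5802393, + strand) lies wholly opposite Malat1, the abundant nuclear long noncoding RNA, which had 4753427 reads. Per base it had 1.31% of the reads of Malat1. It differed by -0.46 ± 0.07 in share (edgeR adjusted p = 4.5e-07) and Malat1 by -0.39, and their ratio by -0.07 ± 0.07 (limma adjusted p = 0.44). How many of its reads come from Malat1 RNA read on the wrong strand was not tested.

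Reads from neighbours and from the other strand could weigh on many of the 200, so each was set beside its partner. A partner on the opposite strand, the gene there with the most reads, was tested for 86 genes, with 82 different partners. Per base of sequence free of other genes on its strand, the TEC gene had a median of 46.1% of its partner's count, with under 5% at 8 genes and over 100% at 32. The lowest was Gm37376, followed by Gm38058 with 2.0% of Fzd5, a Wnt receptor gene. A protein-coding gene that ends within 10 kb upstream on the same strand was tested for 75 genes, which had a median of 43.4% of its count per base. The 86 and 75 pairs were set up after these counts were seen. Across pairs, the genotype differences in share of TEC gene and partner had a Pearson r of 0.29 (Spearman 0.28) for opposite-strand partners and of 0.42 (0.40) for upstream partners. These are over genes of the same libraries, which are not independent.

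In the ratio to the opposite-strand gene, 9 of the 86 were higher and 10 lower in Tet2-KO (limma on log2 ratios with a pseudocount of 0.5, adjusted over all 6277 gene pairs of that kind, of which 17.6% were higher and 18.1% lower). In the ratio to the upstream gene, 5 of 75 were higher and 9 lower (18.4% and 21.3% of 3506 pairs). Without 1 of 8 libraries the count of higher ratios to the upstream gene fell to 2 or 3. These were WT 10 min replicate 1, WT 20 min replicate 3, WT 40 min replicate 1, Tet2-KO 10 min replicates 2 and 3, Tet2-KO 20 min replicate 2 and Tet2-KO 40 min replicates 1 and 3. With Etv6, 1700051K13Rik had a ratio lower by -1.51 ± 0.34 (limma adjusted p = 0.0027). This gene passed the filter on low counts only through its WT libraries, so the p-value is a description. With Tra2a, Gm43980 had a ratio higher by 0.94 ± 0.22 (limma adjusted p = 0.0033). For Gm43668 the ratio to Fxr1 differed by -0.01 ± 0.05 and for E330034L11Rik that to Ensa by 0.05 ± 0.06 (limma adjusted p = 0.91 and 0.59).

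With labelling time the ratio to the opposite-strand gene rose at 3 and fell at 11 of the 86 in WT from 10 to 40 min (12.9% and 12.7% of all pairs), and rose at 3 and fell at 8 in Tet2-KO (8.67% and 8.27%). The ratio to the upstream gene rose at 3 and fell at 12 of the 75 in WT (14.3% and 16.9%), and rose at 7 and fell at 5 in Tet2-KO (12.3% and 11.1%). The median log2 changes of the 4 comparisons were -0.18, -0.27, -0.31 and -0.19.

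After longer labelling the 200 genes took a smaller share of all gene reads. From 10 to 40 min in WT, 63 of the 200 fell and 8 rose (edgeR adjusted p under 0.05), where 29.5% of all genes fell and 16.1% rose. The median log2 change was -0.39 for the 200 and -0.14 for all genes. With TMM scaling, which moved the median of all genes to -0.03, 57 fell and 16 rose. In Tet2-KO 35 fell and 12 rose (20% and 16.5% of all genes), with medians of -0.28 and -0.06. Without Tet2-KO 40 min replicate 2 the fallen were 21. Other classes had medians of -0.40 (lincRNA), -0.32 (antisense) and -0.10 (protein-coding) in WT. As share, the summed reads at 40 min were 0.797 of those at 10 min in WT and 0.886 in Tet2-KO. Per ERCC read, levels rose with labelling as for nearly all genes, with 185 of the 200 higher at 40 min in WT and 178 in Tet2-KO (96.7% and 94.7% of all genes) and 0 lower in either (0.01% and 0.00502%).

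**Figure D5:**
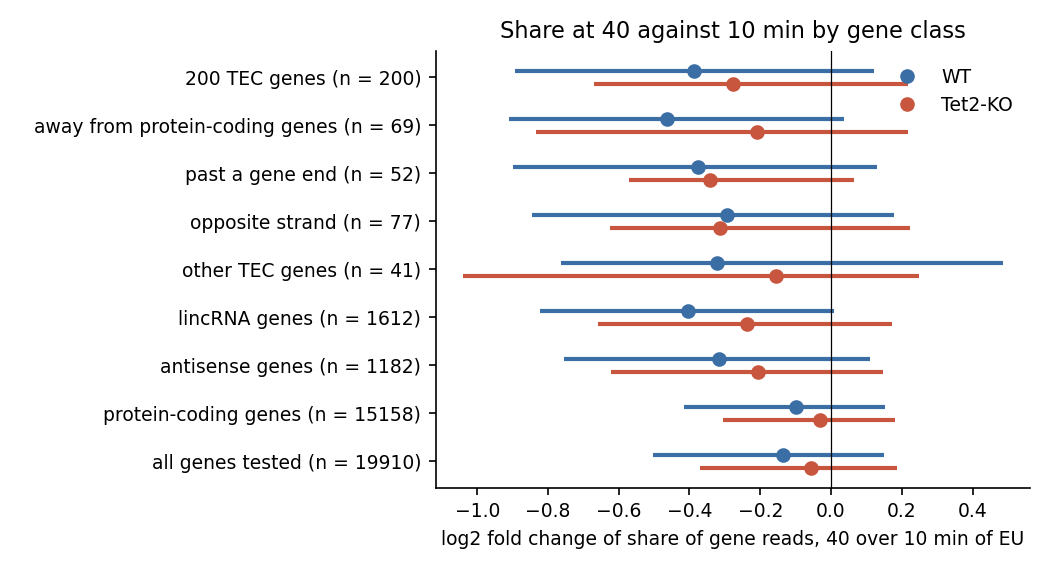
Log2 fold change of the share of gene reads at 40 over 10 min of EU for the tested genes of each class, with the median as a point and the quartiles as a line, in WT and Tet2-KO. The 200 TEC genes have medians of -0.39 and -0.28, near lincRNA and antisense genes and below protein-coding genes.

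Gm48356, Gm42535 and Gm47976 fell most in WT. Gm48356 (chr13:22049514-22051450, + strand) lies 5838 bases past the histone gene Hist1h2bj. It had 0.583, 1.17 and 2.05 RPM at 10 min, 0.763, 0.264 and 0.373 at 20 min and 0.260, 0.245 and 0.194 at 40 min, a change of -2.41 ± 0.62 (edgeR adjusted p = 0.0017). In Tet2-KO the change was -0.57 ± 0.67 and was not called. The difference between the genotypes in this change was not called either (edgeR adjusted p = 0.24).

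Gm42535 (chr5:48324612-48326010, + strand), 16879 bases past Slit2, an axon guidance gene, had 0.135, 1.71 and 0.182 RPM in WT at 10 min, 1.73, 1.64 and 2.65 at 20 min and 0.260, 0.0489 and 0.0486 at 40 min. At 10 min replicate 2 alone was high, so the change of -2.39 ± 0.83 (edgeR adjusted p = 0.019) has a wide error. Its lower share in Tet2-KO, by -1.55 ± 0.53, was not called without that library (-0.87) or without WT 40 min replicate 1 (-1.14). Gm42535 passed the filter on low counts only through its WT libraries. Gm47976 (chr10:78264531-78266075, - strand), 3103 bases past Agpat3, an acyltransferase gene, had 1.03, 0.584 and 1.09 at 10 min and 0.217, 0.294 and 0.194 at 40 min, a change of -1.92 ± 0.57 (edgeR adjusted p = 0.0066).

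Gm38074, Gm38058 and Gm47573 rose most in WT. Gm47573 (chr10:82164247-82166784, + strand) had 2.60, 2.07 and 3.56 RPM at 10 min, 5.09, 4.17 and 4.94 at 20 min and 5.85, 5.48 and 5.97 at 40 min. It rose by 1.07 ± 0.19 in WT and by 0.78 ± 0.20 in Tet2-KO (edgeR adjusted p = 2.8e-05 and 0.0025). Gm38058 (chr1:64736240-64740607, + strand), opposite Fzd5, rose by 1.62 ± 0.49 in WT from 0.314, 0.135 and 0.365 to 0.737, 1.08 and 0.729 (edgeR adjusted p = 0.0072). Gm38074 (chr4:144957155-144958848, - strand), 13774 bases past Vps13d, had 0.179, 0.225 and 0.0456 at 10 min and 0.433, 0.734 and 0.437 at 40 min, a rise of 1.78 ± 0.61 (edgeR adjusted p = 0.016).

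The genotype difference in share itself rose from 10 to 40 min at 4 of the 200 and fell at 0 (edgeR adjusted p under 0.05, where 5.89% of all genes rose and 3.36% fell). At an unadjusted p under 0.05, 17 rose and 8 fell, and DESeq2 called 2 rising and 0 falling. Per ERCC read, where the difference of all genes narrowed by a median of -0.29, it rose at 4 and fell at 5 of the 200 (0.552% and 19.3% of all genes). Gm43860 (chr5:35551260-35553964, - strand), 2239 bases past Trmt44, a tRNA methyltransferase gene, had 4.40, 4.54 and 6.07 RPM in WT at 10 min and 2.05, 1.5 and 1.84 in Tet2-KO. At 40 min it had 5.59, 6.41 and 4.76 in WT and 5.75, 5.84 and 4.85 in Tet2-KO, so that the groups lay apart at 10 min and overlapped at 40 min. Trmt44 differed by 0.04 in share over all times, and the ratio of Gm43860 to it by -0.73 ± 0.11 (limma adjusted p = 5.2e-05). The processed pseudogene Plk-ps1, 220 bases away on the other strand, differed by -0.57 (edgeR adjusted p = 0.0038), and Gm43860 itself by -0.70.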

How the data were processed

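The authors trimmed the reads (Trimmomatic 0.39), aligned them (HISAT2 2.2.1) to mm10 with GENCODE M19 and the ERCC sequences, and counted them per gene (HTSeq 0.12.4), by the submitters' processing notes and the paper's methods. The deposited files hold raw counts, 1 column per library. The strand and overlap settings of HTSeq are not given in the sources used here. Libraries came from a stranded kit.

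edgeR's filterByExpr, with the 6 groups and a minimum count of 10, left 19910 genes. edgeR 4.0.16 (R 4.3.3) fitted 1 quasi-likelihood model with a group per genotype and EU time, once with ERCC totals as library sizes (per ERCC read) and once with total gene reads (share of gene reads), with Benjamini-Hochberg adjustment over all genes and calls at 0.05. Standard errors are the log2 fold change over the root of F. limma 3.58.1 tested log2 ratios to partner genes. The scripts were tested on simulated data. Alternatives were TMM, DESeq2 1.42.0, a sum over the 18 of 92 ERCC transcripts that reach 100 reads in all libraries, other filters, a replicate block and each library left out. Same-group libraries differed by more than sampling noise in all 18 pairs. Reads carry no molecular identifiers and may be copies of 1 molecule, so counts give counting error only.

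Members, lists and tests were chosen with earlier results of these data known, and the partner ratios after the counts were seen. Genes named are the 10 with the most reads, those called with the same sign on both scales with no overlap in share (up to 8 highest and 8 lowest), those whose genotype difference changed with time (up to 3 each way), the 3 largest rises and falls with EU time in WT, and the edge of the list. A planned test against intron hosts could not be made, since no member has a host. The ratio of 1 member to its upstream gene is not reported here by name.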

Additional observations from a re-analysis of the deposited data

Results flagged for a closer look

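At 4 of the 200 genes the genotype difference in share of gene reads changed between 10 and 40 min by edgeR's interaction test. For Gm37397 (chr6:57684739-57687580, - strand), the change was 2.56 ± 0.81 on the log2 scale (edgeR adjusted p = 0.040). The difference went from -1.86 at 10 min to 0.70 at 40 min, on 3 to 36 reads a library. Gm37397 overlaps exons of a protein-coding gene on its strand and shares bases with Pyurf there, so part of its span may not have been counted. Gm44760 (chr7:127657062-127658234, - strand), 3222 bases past Bcl7c, changed by 1.92 ± 0.49 (edgeR adjusted p = 0.010), from -1.09 to 0.83. Its share in WT was 2.42, 1.48 and 1.14 RPM at 10 min and 0.824, 0.783 and 0.583 at 40 min, and in Tet2-KO 0.845, 0.721 and 0.787, then 1.53, 0.890 and 1.51. Gm43860 changed by 1.44 ± 0.26 (edgeR adjusted p = 0.00027), from -1.47 to -0.03. Gm42870 changed by 1.14 ± 0.24 (edgeR adjusted p = 0.0020), from 0.72 to 1.86, and Tet2-KO stayed higher throughout. With 200 genes, 2% passed where 5.89% of all genes did.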

How the results depend on the processing

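Replicate numbers did not pair the libraries: over 45 same-numbered pairs the median correlation of deviations was -0.01 (-0.07 to 0.06), and 6 of 18 libraries lay closest to their own number. With the replicate block, 28 members were higher and 38 lower in share, 137 and 3 per ERCC read, and it moved no count by over 1.5 times. Of 30 named genes, 21 were called in share on average, and 17 of these kept the call in every alternative that tested them. The 9 others gained none, and a minimum of 10 reads in every library left 15 of the 30 untested. The call was lost in 7 alternatives for Gm37795, 9 for Gm43668, 4 for Gm37238 and 2 for Gm42535, each time without 1 library or, for Gm43668 and Gm37238, also with no filter on low counts, and no sign turned. Requiring at least 10 reads in every library tested fewer genes and gave 89 higher per ERCC read and 0 lower (0 at 10, 20 and 40 min). In share it gave 21 lower on average, 11 higher and 15 lower at 10 min, 12 lower at 20 min and 7 at 40 min, 38 falling in WT, and 3 higher and 4 lower ratios to the opposite-strand gene. TMM gave 16 rising in WT and 1 falling genotype difference. DESeq2 gave 0 lower per ERCC read at 40 min, 16 lower in share at 10 min, 13 rising in WT and 2 rising genotype differences, and no filter on low counts 0 lower per ERCC read at 40 min. The 100 highest genes had a ratio of summed shares of 1.05 at 10 min and 1.03 at 20 min. The cause was not tested.

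With each library left out, the counts of members lower per ERCC read ranged from 1 to 5 on average, 1 to 2 at 10 min, 2 to 5 at 20 min and 0 to 1 at 40 min. Lower shares ranged from 16 to 27 at 10 min, 12 to 23 at 20 min and 6 to 12 at 40 min. Falling shares in Tet2-KO ranged from 21 to 38, rising genotype differences from 3 to 7, falling ones from 0 to 2, and higher ratios to the upstream gene from 2 to 6. The libraries whose absence moved a count by over 1.5 times were WT 10 min replicate 3 (5 lower per ERCC read on average, 2 at 10 min, 7 rising genotype differences), WT 10 min replicate 2 (1 falling genotype difference), WT 40 min replicate 3 (5 lower per ERCC read, 1 falling genotype difference), Tet2-KO 10 min replicate 2 and Tet2-KO 40 min replicate 1 (1 lower per ERCC read each, and 2 falling genotype differences without the first), Tet2-KO 10 min replicate 1 (2 lower per ERCC read at 10 min), Tet2-KO 20 min replicate 2 (5 lower per ERCC read and 12 lower in share at 20 min) and Tet2-KO 10 min replicate 3 (16 lower in share at 10 min). At 40 min they were WT replicate 2 and Tet2-KO replicate 2 (0 lower per ERCC read and 7 lower in share each) and Tet2-KO replicate 3 (6 lower in share), and without Tet2-KO replicate 2 also 21 shares fell in Tet2-KO. The 5 higher ratios to the upstream gene became 2 without WT 10 min replicate 1, WT 20 min replicate 3, WT 40 min replicate 1, Tet2-KO 10 min replicate 3 or Tet2-KO 40 min replicate 1 or 3, and 3 without replicate 2 of Tet2-KO at 10 or 20 min. Alternatives on ratios to an intron host were not run, since no member has a host. The median member had 461.5 reads over 18 libraries, which limits the precision of single members.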
